A study of Mus musculus with 6 samples.

Results

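The 10 genes described here are immediate-early regulators of transcription, chosen by gene symbol in the count table: Fos, Fosb, Fosl2, Jun, Junb, Jund, Egr1, Egr3, Atf3 and Btg2. They are 10 of 49315 genes in that table, and 10 of 10 passed the filter on low counts that left 15847 genes for testing. The tissue was gastrocnemius, a calf muscle, of C57BL6J males, injected with an AAV9 virus at 5 months of age and taken 5 months later. In the AAV9-HSA-CAAHR group the virus carried a constitutively active aryl hydrocarbon receptor (AHR), a mouse AHR coding sequence without its ligand binding domain (replicates 31, 34 and 36). In the AAV9-HSA-GFP group it carried a green fluorescent protein (replicates 42, 43 and 46). HSA stands for human skeletal actin, whose promoter drives expression in fibres and drove both coding sequences. Each library therefore came from a muscle that had received a virus, and uninjected muscle was not analysed here. The labels do not say how the libraries relate to animals, so p-values measure the spread between these 3 libraries per group.

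Immediate-early genes are transcribed within minutes of a stimulus, without the need for new protein synthesis, and their mRNAs are mostly short-lived. In skeletal muscle they are known to respond to contraction, stretch, injury and growth factors. FOS and JUN proteins pair through leucine zippers to form AP-1, which binds DNA as a dimer. EGR proteins bind GC-rich DNA through zinc fingers. ATF3 is a stress-induced leucine zipper factor, and BTG2 is an antiproliferative co-regulator that binds no DNA itself.

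Library totals lay between 43432994 and 58825752 counts. Ahr was at 9.97 to 22.8 CPM (counts per 1000000, after TMM scaling between libraries) in AAV9-HSA-CAAHR muscles and at 1.87 to 2.55 CPM in AAV9-HSA-GFP muscles, and its target Cyp1a1 was at 1231 to 1680 against 5.85 to 7.74 CPM, so the libraries matched their labels. CAAHR replicate 34 had the highest Ahr and Cyp1a1 of the 3 CAAHR libraries. It also stood apart from replicates 31 and 36 in fibre-type transcripts. The summed level of 7 slow fibre markers was 576 CPM in replicate 34, 2518 CPM in replicate 31 and 2297 CPM in replicate 36, against 184 to 406 CPM in AAV9-HSA-GFP muscles. The 10 genes are therefore given by library.

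The promoter windows are shown first, because the delivered protein is a DNA-binding factor. RefSeq windows on GRCm38.p6 run from 250 bases before to 50 bases after an annotated start. They were matched by symbol, and 8 of the 10 genes had a window that could be read here. Egr1 and Egr3 had none, so the counts of matches leave them out. The AHR element core GCGTG was found on either strand in 5 of these 8 windows, against 32.4% of all 32851 windows. The windows of those 5 genes follow, 5′ to 3′ on the strand of the gene. Capitals mark each match on either strand to GCGTG, to the cAMP response element TGACGTCA or to the EGR element GCGNGGGCG.
Fos, chr12:85473640-85473939, plus strand: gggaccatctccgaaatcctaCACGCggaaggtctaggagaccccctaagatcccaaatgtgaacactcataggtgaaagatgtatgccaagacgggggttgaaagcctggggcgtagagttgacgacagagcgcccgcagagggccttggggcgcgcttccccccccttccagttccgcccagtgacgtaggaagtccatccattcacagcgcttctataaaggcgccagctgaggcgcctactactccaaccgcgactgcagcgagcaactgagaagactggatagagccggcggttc
Fosb, chr7:19309996-19310295, minus strand: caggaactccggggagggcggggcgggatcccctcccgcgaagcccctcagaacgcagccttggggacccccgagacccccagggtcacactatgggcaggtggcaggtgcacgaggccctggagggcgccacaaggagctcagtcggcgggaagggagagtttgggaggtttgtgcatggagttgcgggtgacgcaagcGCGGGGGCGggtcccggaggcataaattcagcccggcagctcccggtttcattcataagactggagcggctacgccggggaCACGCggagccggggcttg
Junb, chr8:84978699-84978998, minus strand: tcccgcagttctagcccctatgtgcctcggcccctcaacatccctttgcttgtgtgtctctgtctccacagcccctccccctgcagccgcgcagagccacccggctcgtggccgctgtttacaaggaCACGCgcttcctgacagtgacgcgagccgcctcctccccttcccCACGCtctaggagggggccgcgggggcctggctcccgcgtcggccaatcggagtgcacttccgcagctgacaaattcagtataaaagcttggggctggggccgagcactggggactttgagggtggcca
Atf3, chr1:191183284-191183583, minus strand: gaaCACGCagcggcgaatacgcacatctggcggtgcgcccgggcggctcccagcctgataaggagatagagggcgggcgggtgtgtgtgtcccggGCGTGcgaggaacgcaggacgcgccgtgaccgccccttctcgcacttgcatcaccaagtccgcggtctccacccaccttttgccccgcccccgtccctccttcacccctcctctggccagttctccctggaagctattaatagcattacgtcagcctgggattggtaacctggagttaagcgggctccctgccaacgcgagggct
Btg2, chr1:134079106-134079405, minus strand: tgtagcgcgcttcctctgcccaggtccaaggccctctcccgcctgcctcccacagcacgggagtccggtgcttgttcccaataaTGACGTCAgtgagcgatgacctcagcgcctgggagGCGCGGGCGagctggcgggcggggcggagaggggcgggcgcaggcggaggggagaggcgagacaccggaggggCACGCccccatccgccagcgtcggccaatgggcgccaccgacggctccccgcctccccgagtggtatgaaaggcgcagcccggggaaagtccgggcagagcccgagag

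Relative to the start, the core began at position -229 in the Fos window, at 32 in Fosb, at -123 and -79 in Junb, at -247 and -155 in Atf3 and at -58 in Btg2. TGACGTCA was found in 1 of 8 windows, that of Btg2, against 1.79% of all windows. GCGNGGGCG was found in 3 of 8 (Btg2, Fosb and Fosl2) against 5.55%. The AP-1 element TGANTCA (found in 7.81% of all windows) and the CArG box, the binding sequence of serum response factor (1.63%), were found in 0 of 8, which says only that these letters are not in these windows. No matches overlapped one another. The Atf3 window lies at a start well inside the gene as annotated by GENCODE, and the Fosl2 window at a start 671 bases inside. The start used for Jund is at -1210 bases from that of GENCODE. Its window therefore ends before the annotated gene, and the counts over 8 windows include it. A match of 5 letters is a description of sequence and not a binding site.

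Across the 10 genes, the AAV9-HSA-CAAHR muscles differed widely among themselves. In replicates 31 and 36, 9 of 10 genes were below the range of the 3 AAV9-HSA-GFP muscles, as were 31.3% and 31.9% of all tested genes, and Atf3 was within it. In replicate 34, 5 genes were above that range (Fos, Jun, Jund, Atf3 and Btg2) and 5 were below it (Fosb, Fosl2, Junb, Egr1 and Egr3), beside 32.4% and 32.3% of all tested genes. The groups therefore did not overlap for 5 of 10 genes, lower in each case in AAV9-HSA-CAAHR muscles, where 14.9% of all tested genes did the same. With all 6 libraries, 1 gene, Egr3, had an adjusted p under 0.05 (quasi-likelihood test of edgeR, p adjusted over all tested genes after Benjamini and Hochberg). It was lower, as were 4.57% of all tested genes (7.6% in either direction and 3.04% higher). The lower genes made up 60.1% of all calls, 73.4% with upper quartile scaling and 40.7% with library size only.

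**Figure D1:**
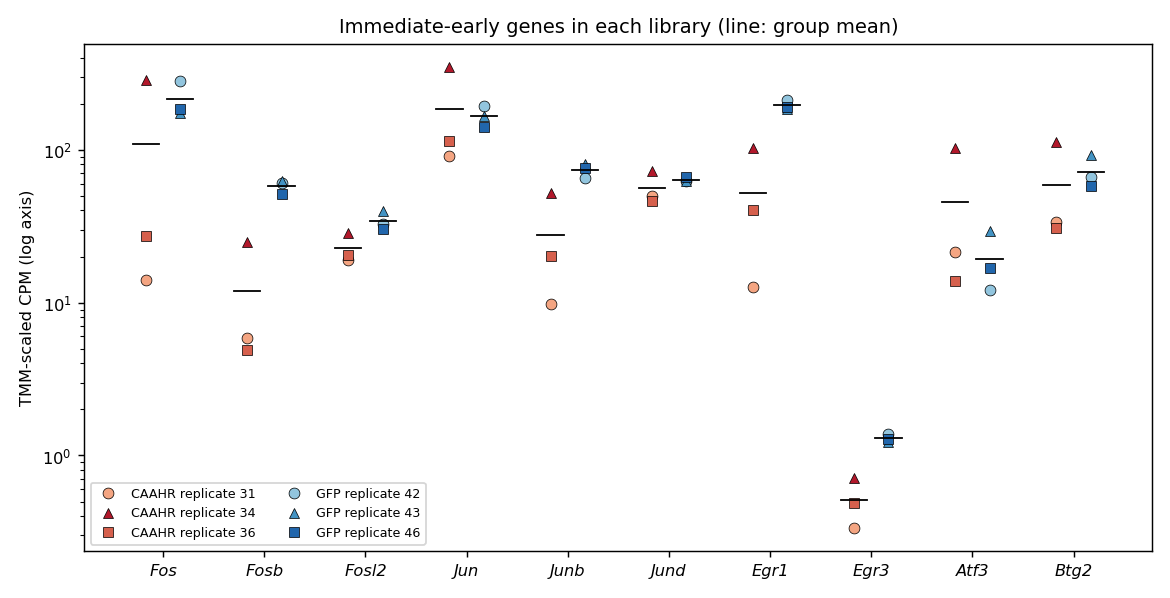
TMM-scaled CPM on a log axis for each immediate-early gene, with AAV9-HSA-CAAHR libraries in red and AAV9-HSA-GFP libraries in blue; horizontal lines are group means of 3 libraries. CAAHR replicate 34 (dark triangle) is the highest CAAHR library for 10 of 10 genes, and for Fosb, Fosl2, Junb, Egr1 and Egr3 it still lies below each GFP library.

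The FOS family was examined first. Fos (ENSMUSG00000021250, chromosome 12, 85473890 to 85477273, GRCm38), the founding subunit of AP-1, was at 14.1, 285 and 27.3 CPM in CAAHR replicates 31, 34 and 36. It was at 281, 174 and 185 CPM in GFP replicates 42, 43 and 46. CAAHR replicates 31 and 36 were far below each GFP muscle while replicate 34 was level with the highest, and the highest CAAHR library was 20.1-fold above the lowest. Group means were 109 ± 152.5 CPM (SD, n = 3) and 213 ± 58.9 CPM, and the log2 fold change of -0.97 ± 1.23 (SE; 95% interval -4.19 to 2.24) was smaller than this spread (edgeR, adjusted p = 0.710).

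Fosb (ENSMUSG00000003545, chromosome 7, 19302696 to 19310051), whose products include a stable truncated form that builds up with repeated stimulation, was at 5.85, 24.7 and 4.89 CPM in the CAAHR muscles. In the GFP muscles it was at 60.8, 62.2 and 51.0 CPM. Replicate 34 was the highest of its group as it was for Fos, yet it reached 42.7% of the GFP mean, and the groups did not overlap. The log2 fold change was -2.29 ± 0.71 (95% interval -4.13 to -0.45), with an unadjusted p of 0.0242 and an adjusted p of 0.139 by edgeR. The adjusted p for Fosb was 0.0237 with DESeq2, 0.00311 with limma-voom and sample weights, and 0.0359 with edgeR without robust estimation. With the other scalings and filters it lay between 0.113 and 0.260 by edgeR. Leaving out any single library other than CAAHR replicate 34 gave 0.240 to 0.307.

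Fosl2 (ENSMUSG00000029135, chromosome 5, 32135801 to 32157842) encodes FRA2, a FOS relative without the strong activation domain of FOS. It was at 19.0, 28.4 and 20.5 CPM in the CAAHR muscles and at 32.5, 39.8 and 30.2 CPM in the GFP muscles. It varied less among CAAHR muscles than Fos or Fosb, and each CAAHR library was below each GFP library. Its log2 fold change was -0.59 ± 0.17 (95% interval -0.97 to -0.22; edgeR, adjusted p = 0.0646). The adjusted p for Fosl2 was 0.0124 with DESeq2, 0.0248 with limma-voom and sample weights, 0.0432 with upper quartile scaling and 2.32e-05 without a filter on low counts. With the other edgeR fits on all 6 libraries it lay between 0.0637 and 0.0646. Leaving out any single library other than CAAHR replicate 34 gave 0.104 to 0.190.

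Of the JUN family, Jun (ENSMUSG00000052684, chromosome 4, 95049034 to 95052222), the main partner of FOS in AP-1, was at 90.3, 347 and 114 CPM in CAAHR replicates 31, 34 and 36. In GFP replicates 42, 43 and 46 it was at 193, 166 and 141 CPM. All GFP muscles lay between replicate 34 and the other two CAAHR muscles, and the log2 fold change was 0.14 ± 0.56 (95% interval -1.29 to 1.57; edgeR, adjusted p = 0.917).

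Junb (ENSMUSG00000052837, chromosome 8, 84974484 to 84978718), a weaker activator that is known to help maintain muscle mass, was at 9.81, 52.3 and 20.3 CPM in the CAAHR muscles. In the GFP muscles it was at 64.9, 80.6 and 76.3 CPM. The groups did not overlap, and replicate 34 was 70.8% of the GFP mean. The log2 fold change was -1.43 ± 0.64 (95% interval -3.07 to 0.22; edgeR, adjusted p = 0.263; limma-voom with sample weights, adjusted p = 0.0199). The adjusted p for Junb was 0.200 with DESeq2 and 0.109 with edgeR without robust estimation.

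Jund (ENSMUSG00000071076, chromosome 8, 70698949 to 70700616), the JUN family member that is present without a stimulus in most tissues, was at 49.97, 72.9 and 46.03 CPM in the CAAHR muscles. It was at 62.0, 62.2 and 65.9 CPM in the GFP muscles, and it had the smallest spread of the 10 genes there. Its log2 fold change was -0.17 ± 0.16 (95% interval -0.54 to 0.19; edgeR, adjusted p = 0.579). Exons of Jun, Junb and Jund share 232, 173 and 877 bases with those of Junos, Prdx2 and Gm11175 on the opposite strand. Counting used strand where the library preparation kept it. Whether this preparation did is not given in the sources used here, and without strand reads in those bases cannot be told apart.

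The EGR genes were lower in each CAAHR muscle than in each GFP muscle. Egr1 (ENSMUSG00000038418, chromosome 18, 34859823 to 34864984), a zinc finger factor that serum response factor activates, was at 12.7, 102 and 40.1 CPM in CAAHR replicates 31, 34 and 36. It was at 213, 186 and 189.5 CPM in GFP replicates 42, 43 and 46. GFP muscles differed by at most 1.14-fold and CAAHR muscles by 8.08-fold. The log2 fold change was -1.92 ± 0.77 (95% interval -3.90 to 0.06), with an unadjusted p of 0.0546 and an adjusted p of 0.220 by edgeR, and 0.0183 by limma-voom with sample weights. The adjusted p for Egr1 was 0.0809 with DESeq2 and 0.0787 with edgeR without robust estimation.

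Egr3 (ENSMUSG00000033730, chromosome 14, 70077203 to 70082614), known in muscle for the development of the muscle spindle, was the least abundant of the 10. Its counts were 17, 41 and 30 in the CAAHR muscles and 67, 51 and 68 in the GFP muscles, or 0.515 ± 0.192 CPM (SD, n = 3) against 1.30 ± 0.0824 CPM. It fell by 1.32 ± 0.31 on the log2 scale (95% interval -2.02 to -0.63; edgeR, adjusted p = 0.0327) and was lower in 3 of 3 CAAHR libraries. Leaving out any single library other than CAAHR replicate 34 ended the call (edgeR, adjusted p between 0.0717 and 0.107).

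Atf3 and Btg2 are each induced by stress. Atf3 (ENSMUSG00000026628, chromosome 1, 191170296 to 191218039) was at 21.5, 102 and 13.9 CPM in the CAAHR muscles and at 12.0, 29.2 and 16.9 CPM in the GFP muscles. Replicate 34 was 5.74-fold above the mean of replicates 31 and 36, which lay within the GFP range. The log2 fold change of 1.24 ± 0.89 (95% interval -1.06 to 3.55; edgeR, adjusted p = 0.477) rested on replicate 34 and was -0.13 without it.

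Btg2 (ENSMUSG00000020423, chromosome 1, 134075170 to 134079120) was at 33.6, 112 and 30.8 CPM in the CAAHR muscles. In the GFP muscles it was at 66.0, 92.003 and 57.8 CPM. As for Jun, the GFP muscles lay between replicate 34 and the other CAAHR muscles. The log2 fold change was -0.29 ± 0.59 (95% interval -1.82 to 1.24; edgeR, adjusted p = 0.827).

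**Figure D2:**
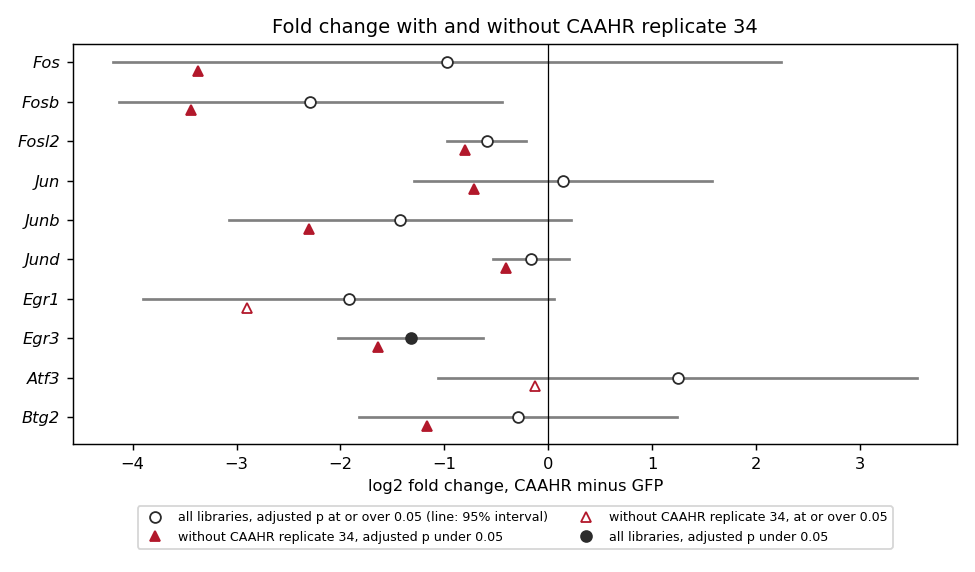
Log2 fold change (CAAHR minus GFP) of each immediate-early gene with all 6 libraries (circles, with 95% intervals) and without CAAHR replicate 34 (triangles); filled symbols have an adjusted p under 0.05 by edgeR. With all libraries 1 of 10 symbols is filled, and without replicate 34 the filled symbols number 8, each left of 0.

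Each of the 6 libraries was left out in turn. Without CAAHR replicate 34, 8 of the 10 genes were lower with an adjusted p under 0.05 by edgeR, where 5.51% of all genes tested in that fit were lower and 5.16% higher. Without any one of the other 5 libraries, 0 were by edgeR (2 or 3 at an unadjusted p under 0.05). In the main edgeR fit 3 of the 10 genes had an unadjusted p under 0.05, as did 3781 of all 15847 tested genes. This share was not counted in the fits on 5 libraries. With all 6 libraries DESeq2 called 3 (and 1923 of 18485 genes tested). Limma-voom with sample weights called 5 (and 1461 of 15847), and such weights can count a library that stands apart for less. In the edgeR fit without replicate 34, Fosb fell by 3.44 on the log2 scale (adjusted p = 5.87e-07), Fos by 3.37 (adjusted p = 0.00989) and Junb by 2.30 (adjusted p = 0.0145). Egr3 (-1.64), Btg2 (-1.16), Fosl2 (-0.80), Jun (-0.72) and Jund (-0.41) also passed. Egr1 did not, at -2.90 and an adjusted p of 0.0675, and neither did Atf3. The median log2 fold change over the 10 genes was -0.78 with all libraries and -1.40 without replicate 34, beside medians of 0.01 and -0.0006 over all genes tested. Replicate 34 stands apart on the same genes that are counted here, so the count without it describes the other 5 libraries and is not independent of their choice.

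The distance of replicate 34 from the other libraries of its group was measured on the log2 CPM scale. Relative to the mean of replicates 31 and 36 it was higher for 10 of 10 genes, by 0.52 (Fosl2) to 3.85 (Fos) with a median of 1.84. It was over 1 log2 unit higher for 7 of 10 genes, against 1.85% of all tested genes. The order of the other two was mixed, since replicate 31 was the lowest CAAHR library for 6 genes and replicate 36 for 4. GFP libraries had medians of 0.03, 0.08 and -0.20 by the same measure, and 1 gene, Atf3 in GFP replicate 43 (1.03), differed there by over 1 log2 unit.

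**Figure D3:**
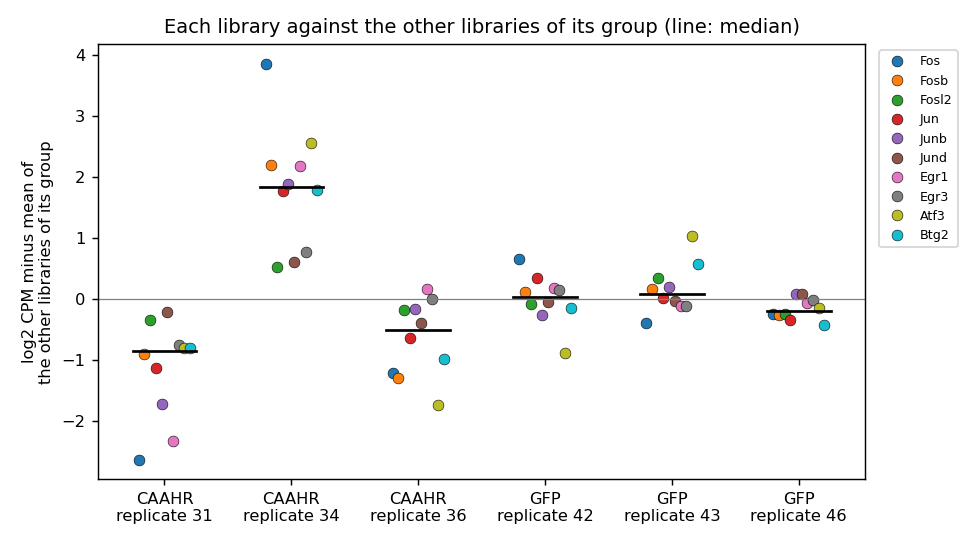
Log2 CPM of each immediate-early gene in a library minus the mean of the other libraries of its group; lines are medians over the 10 genes. CAAHR replicate 34 has a median of 1.84, CAAHR replicate 31 of -0.86 and CAAHR replicate 36 of -0.52, and the GFP libraries lie near 0.

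The spread among libraries was wide in the CAAHR group and near that of all tested genes in the GFP group. The distance of replicate 34 enters this spread, so the spread is not a separate observation. The genes were also chosen with earlier results of these data known. The median SD of log2 CPM over the 10 genes was 1.12 in CAAHR libraries, beside 0.189 over all tested genes. In GFP libraries these medians were 0.183 and 0.167. The SD of log2 CPM over the 3 CAAHR libraries was over 1 for 7 of 10 genes, against 2.71% of all tested genes. In GFP libraries it was over 1 for 0 of 10 genes, against 1.15% of all tested genes. Fos had an SD of 2.27 among CAAHR libraries (higher than 99.98% of tested genes) and of 0.38 among GFP libraries. Egr1 had SDs of 1.51 and 0.10, a ratio of 14.4. The median ratio over the 10 genes was 5.89, beside 1.15 over all tested genes. Fosl2 had the smallest ratio, 1.504.

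**Figure D4:**
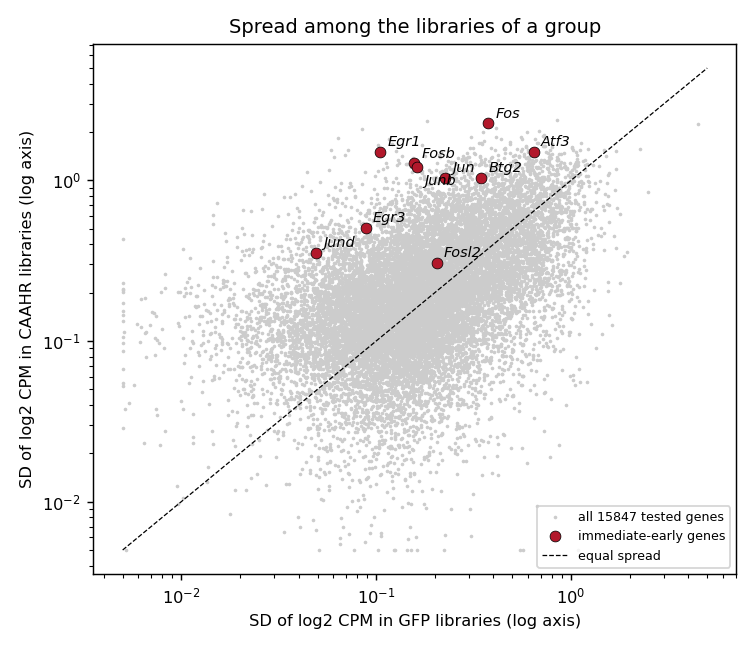
SD of log2 CPM over the 3 libraries of each group on log axes, for all 15847 tested genes (grey) and the immediate-early genes (red); the dashed line is equal spread, and SDs under 0.005 are drawn at 0.005. The 10 named genes lie above the line, from a ratio of 1.504 for Fosl2 to 14.4 for Egr1.

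Shares within a family do not depend on scaling between libraries. Fos took 36.3%, 84.3% and 51.8% of the counts of Fos, Fosb and Fosl2 in CAAHR replicates 31, 34 and 36, and 75.1%, 63.0% and 69.5% in GFP replicates 42, 43 and 46. The difference of -11.7 percentage points was within the spread (exact permutation test, two-sided, p = 0.5, where 3 against 3 libraries cannot go below 0.1). Jund took 33.3%, 15.4% and 25.6% of the counts of Jun, Junb and Jund against 19.4%, 20.2% and 23.3%, a difference of 3.83 percentage points (exact permutation test, two-sided, p = 0.6). Fosl2 took the larger part of what Fos left in replicates 31 and 36 (48.7% and 38.9%) and 8.40% in replicate 34, against 8.68% to 14.4% in GFP muscles.

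Junb and Fosb differed in this respect. Junb took 6.53%, 11.1% and 11.3% of JUN family counts in the CAAHR muscles against 20.3%, 26.1% and 26.9% in the GFP muscles, so replicate 34 resembled its own group here. Divided by exon length, these shares were 6.82%, 13.0% and 12.2% against 22.4%, 28.1% and 28.4%, again without overlap. Fosb took 15.0%, 7.32% and 9.27% of FOS family counts against 16.2%, 22.5% and 19.1%. By exon length its shares were 10.5%, 3.10% and 5.39% against 7.34%, 11.3% and 9.07%, and the groups overlapped. Both were chosen after their values were seen and were not tested.

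**Figure D5:**
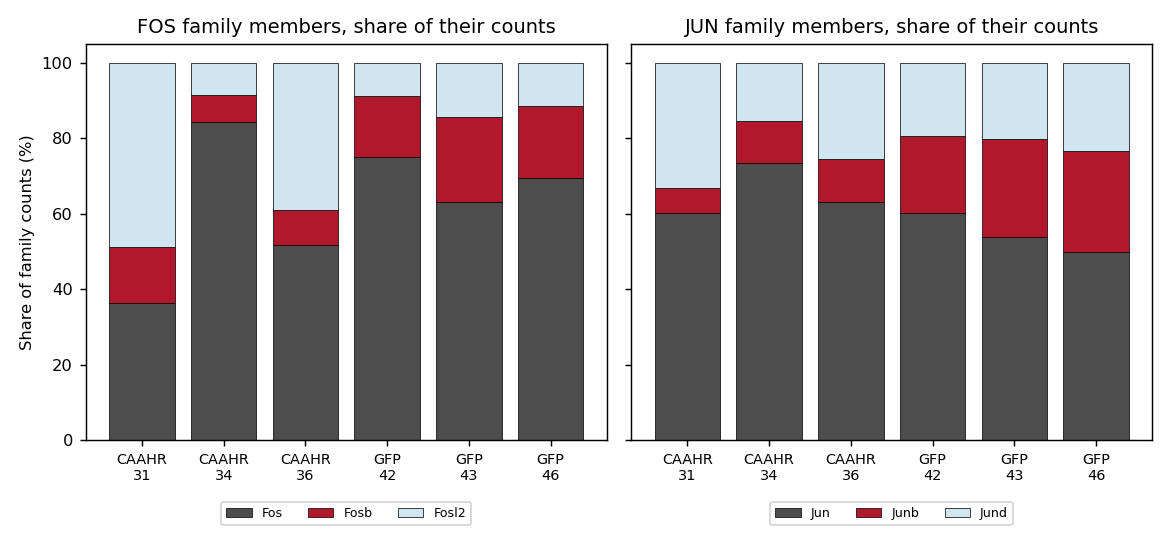
Share of the counts of Fos, Fosb and Fosl2 (left) and of Jun, Junb and Jund (right) taken by each gene, as stacked bars from 0 to 100% for each library. Junb takes 6.53% to 11.3% in the CAAHR libraries and 20.3% to 26.9% in the GFP libraries.

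Levels of different genes were compared per kilobase of exon. In GFP muscles the order was Fos (90.7 ± 25.05 CPM per kilobase, SD, n = 3), Jun (52.2 ± 8.12), Egr1 (43.7 ± 3.24), Jund (38.0 ± 1.31), Junb (32.1 ± 3.51), Btg2 (26.2 ± 6.52), Fosb (9.28 ± 0.978), Atf3 (8.98 ± 4.11), Fosl2 (3.53 ± 0.514) and Egr3 (0.295 ± 0.0187). The ranges of Jun and Egr1, of Junb and Btg2, and of Fosb and Atf3 overlapped, and the other neighbours in this order did not overlap. In CAAHR replicates 31 and 36, Jun and Jund led at 28.3 and 30.0 and at 35.6 and 27.6 CPM per kilobase, with Fos at 6.01 and 11.6. In replicate 34 Fos (121) and Jun (109) led, as they did in each GFP library (119 and 60.5 in GFP replicate 42). Lengths are unions over all annotated exons.

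A sequence feature shared by the 10 mRNAs is the pentamer AUUUA, which in 3′ untranslated regions is known to shorten mRNA half-life. It was present in 10 of 10 of these regions, against 67.0% of 13258 tested coding genes, at a median of 2.40 per kilobase beside 1.23. Fos had 4 in 815 bases and Junb 2 in 485, while Fosb had 1 in 2145 and Jund 1 in 533. This feature was chosen with the values known, and its share of any difference was not tested.

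Other genes of the immediate-early response were read from lists. Over all tested genes edgeR called 4.57% lower and 3.04% higher, which are the shares to set beside each count below. An unadjusted p under 0.05 by edgeR was found for 3781 of all 15847 tested genes. Of the other AP-1 family members 0 of 4 tested genes were called (edgeR, with 1 at an unadjusted p under 0.05, and 0 were called by DESeq2 or limma-voom), and the smallest p belonged to Jdp2, an AP-1 repressor (log2 fold change -0.37, adjusted p = 0.178), and to Atf2 (0.15, adjusted p = 0.545). Of the EGR family and its NAB corepressors 1 of 3 was called. Egr2, a paralogue of Egr1, was at 1.25, 1.91 and 1.33 CPM against 3.98, 3.61 and 4.44 CPM and fell by 1.42 ± 0.21 on the log2 scale (edgeR, adjusted p = 0.00410). Here replicate 34 stood with its own group.

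Of 15 other immediate-early transcription regulators tested, 4 were lower and 2 higher, against 4.57% and 3.04% of all tested genes. Without CAAHR replicate 34 there were 8 lower and 2 higher, against 5.51% and 5.16% of the genes tested in that fit. On the log2 scale Klf2, a Kruppel-like factor of endothelial cells and lymphocytes, fell by 1.14 ± 0.11 (SE), Klf4 by 0.92 ± 0.16 and Klf6 by 0.54 ± 0.14. Myc, a growth regulator, fell by 1.26 ± 0.22. The higher genes were Maff (1.34 ± 0.25), a small MAF factor without an activation domain, and Klf10 (0.93 ± 0.22). Adjusted p for these 6 lay between 0.000541 and 0.0431 (edgeR), and the median log2 fold change over the 15 was -0.37.

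Of 26 immediate-early genes that are not transcription factors, 7 were lower and 1 was higher, against 4.57% and 3.04% of all tested genes. Their median log2 fold change was -0.66. The groups did not overlap for 15 lower and 2 higher genes. Over all tested genes 14.9% were lower without overlap, and the share that were higher without overlap was not counted. The lower genes with the smallest p were Ptgs2, which encodes cyclooxygenase 2 (-4.12 ± 0.32), Gadd45a (-1.12 ± 0.17), Zfp36l2 (-0.90 ± 0.15) and Nfkbiz (-1.04 ± 0.19). Plk2, a polo-like kinase, was the higher one at 2.26 ± 0.42 and was at 30.8, 90.8 and 59.8 CPM in CAAHR replicates 31, 34 and 36. Adjusted p for these 5 lay between 0.000222 and 0.0365 (edgeR). Dusp1, the phosphatase that turns off MAP kinases and a gene chosen here after its values were seen, was at 47.0, 255 and 62.4 CPM in CAAHR replicates 31, 34 and 36 and at 225, 189 and 161 CPM in the GFP muscles, so its order among CAAHR muscles was that of Fos. Over 1 log2 unit of excess in replicate 34 was found for 4 of 15 and 3 of 26 genes, against 7 of the 10 members and 1.85% of all tested genes.

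Among upstream regulators, 1 of 17 was called. Srf, serum response factor, which activates Fos and Egr1 through CArG boxes, was at 76.0, 90.0 and 79.6 CPM in the CAAHR muscles and at 128, 119 and 136 CPM in the GFP muscles. It fell by 0.64 ± 0.10 on the log2 scale (edgeR, adjusted p = 0.00648), and replicate 34 stood with its group.

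Of 9 heat shock genes 1 was called, Hsph1 (0.75 ± 0.11). Hspa1a, an inducible HSP70 gene, was at 46.7, 11.9 and 22.9 CPM in CAAHR replicates 31, 34 and 36 and at 6.65, 7.57 and 5.27 CPM in the GFP muscles (log2 fold change 2.06 ± 0.54, edgeR, adjusted p = 0.0927). Among CAAHR muscles its order was the reverse of that of Fos.

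Summed markers of some other cell types differed between the groups without overlap, and those of other types overlapped. The 10 leukocyte markers summed to 14.6 to 21.3 CPM in AAV9-HSA-CAAHR muscles and to 33.1 to 75.3 CPM in AAV9-HSA-GFP muscles, and 4 of 10 were called lower. Replicate 34 had the lowest sum, so it was not near the GFP muscles in this respect. Fewer cells of a type and less RNA per cell cannot be told apart in whole muscle. The paper reports that the GFP virus itself provoked a local immune response in muscle. By its quantitative PCR, selected immune genes were not lower with AAV9-HSA-CAAHR than in mice given no virus. Genes described here as lower or as having fallen were so relative to AAV9-HSA-GFP muscles only. In replicate 34 fibroblast markers summed to 280.5 CPM and smooth muscle and pericyte markers to 262 CPM, against 457 to 516 and 338 to 451 CPM in the other CAAHR muscles and 402 to 495 and 332 to 349 CPM in GFP muscles. Fast fibre markers summed to 180931 CPM in replicate 34, against 129674 and 150223 CPM in replicates 31 and 36 and 180106 to 190713 CPM in GFP muscles. Endothelial (172 to 248 against 174 to 218 CPM) and satellite cell markers (44.0 to 57.9 against 45.4 to 54.1 CPM) overlapped between groups. Schwann cell markers (30.2 to 48.5 against 50.04 to 88.1 CPM) did not. Adipocyte sums (84.5 to 129 against 86.7 to 182 CPM) overlapped, but most of each sum was Fabp4 (log2 fold change -0.03). Over the 4 adipocyte markers the median log2 fold change was -2.04. Plin1 (-2.77) and Cidec (-1.996) were lower without overlap, and Adipoq (-2.09) was lower with overlap. Of these lists other than the leukocyte one, edgeR called 1 of 4 adipocyte and 2 of 7 fast fibre markers lower and no other marker. An unadjusted p under 0.05 was found for 6 of 7 slow fibre and 2 of 4 Schwann cell markers, beside 3781 of all 15847 tested genes. No marker was at or under 3 counts in all 6 libraries. The part of any of these in the values of the immediate-early genes was not tested.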

How the data were processed

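Counts per gene were deposited by the authors, who made them from poly(A)-selected, paired-end reads trimmed with Trimmomatic 0.36, aligned to GRCm38 with STAR 2.5.2b and counted as unique exonic reads with featureCounts. The deposited counts were not normalised or pooled. Each of the 6 columns was matched to 1 library by its title. No library pair within a group was a duplicate by chi-square test (statistic over degrees of freedom 23.7 or more).

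The test was that of edgeR 4.0.16 in R 4.3.3 (filterByExpr, trimmed-mean (TMM) scaling, robust quasi-likelihood F test, Benjamini-Hochberg adjustment over 15847 genes, threshold 0.05). Log2 CPM used a prior count of 2. Shares were compared by exact permutation test. The edgeR test was run on data simulated from these libraries (15617 genes), with the same dispersion in both groups. There it called 95.9% of 97 genes changed 4-fold, 61.9% of 97 changed 2-fold and 5 unchanged genes. The spread of the 10 members was unequal between groups (median SD ratio 5.89), so these percentages do not describe them. Alternatives were 3 other scalings, 2 filters, DESeq2 1.42.0 (the tool of the study), limma-voom 3.58.1, edgeR without robust estimation and each library left out. Limma-voom was run with sample weights, which can count a library that stands apart for less. Positions and lengths came from GENCODE M21.

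The members and lists were chosen with earlier results of these data known. Named were all 10 members and, of each other list, the called genes with the smallest p (up to 4) or, with none called, the 2 with the smallest p. Klf6, Klf10, Plk2, Dusp1 and Hspa1a were named after their values were seen. Cell type markers were to be given as summed levels, so naming Fabp4, Plin1, Cidec and Adipoq went beyond that plan. Library totals (43432994 to 58825752 counts) leave counting error small for all members but Egr3, which had 17 to 68 counts.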

Additional observations from a re-analysis of the deposited data

How the results depend on the processing

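No paired analysis was possible because no replicate number occurs in both groups. The count of immediate-early genes with an adjusted p under 0.05, 1 with all libraries, was 2 with upper quartile scaling, 2 without a filter on low counts, 3 with DESeq2, 5 with limma-voom and sample weights and 2 with edgeR without robust estimation. Leaving out one library gave 0 to 8, with 8 where CAAHR replicate 34 was absent. DESeq2 gave no p for Fos. These counts stand beside the calls over all genes, which were 1205 of 15847 in the main fit. Of 15847 genes, upper quartile scaling called 1348, limma-voom 1461 and edgeR without robust estimation 1279. DESeq2 called 1923 of 18485, and the fit without a filter called 2470 of 28661. Fits on 5 libraries called between 530 (CAAHR replicate 36 absent) and 1727 (CAAHR replicate 34 absent). The difference for Jun (0.14) reversed to -0.33 with limma-voom and sample weights. It lay between -0.72 and 0.46 in the leave-one-out fits, where Atf3 lay between -0.13 and 1.67 and Btg2 between -1.16 and 0.0096. The difference in Jund share lay between -0.430 (CAAHR replicate 31 absent) and 8.49 percentage points, and that in Fos share between -25.2 and -1.16. Of 140 checks of single genes, 116 changed neither direction nor call, 5 lost the call, 15 gained one in the same direction and 4 changed direction, of which Jun without CAAHR replicate 34 also gained a call. The cause was not tested.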
